A study of Mus musculus with 6 samples.

Results

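Glucose use was followed through 37 genes in mouse embryonic fibroblasts (MEFs), connective tissue cells grown from mouse embryos. The genes were picked by symbol for the uptake of glucose, glycolysis, lactate handling, the entry of pyruvate into mitochondria, the pentose phosphate pathway and the response to low oxygen. They are 37 of the 56953 genes in the table. Glycolysis splits glucose into pyruvate, which is either turned into lactate and exported or handed to mitochondria by pyruvate dehydrogenase, and the pentose phosphate pathway branches off the first sugar phosphate to make NADPH and ribose. Most steps can be carried by several isozymes from separate genes, and tissues differ in which they use. Hypoxia-inducible factor (HIF) raises many of these genes when oxygen is short, and prolyl hydroxylases mark its alpha subunit for destruction when oxygen is present.

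The study sequenced poly-A RNA of 3 WT and 3 GαqKO libraries, described as biological replicates. Gαq relays signals from membrane receptors to phospholipase C, and the GαqKO cells came from a line that lacks Gαq and its relative Gα11 (Gαq/11 knockout). Both lines grew in DMEM with 10% serum with no treatment described. Each genotype is 1 supplied line, so that genotype and line cannot be told apart, and p-values measure the spread between these libraries.

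The targeted genes were checked first. Gnaq, the gene of Gαq, had 1665, 1660.2 and 1747 normalized counts in WT replicates 1, 2 and 3 and 1959.7, 1931 and 1888 in the libraries labelled GαqKO, so it was not lower there (log2 fold change 0.19, standard error 0.045, adjusted p = 0.00212). Gna11, the gene of Gα11, had 2141, 2179.9 and 2123 normalized counts in WT and 472, 464 and 419 in GαqKO, with every value lower (log2 fold change -2.25, standard error 0.057, adjusted p = 9.16e-13). Every direction below is therefore drawn from the labels. Of the 12 fibroblast markers, 11 were tested, with 6 higher and 5 lower in GαqKO. Of all genes tested, 31.8% were higher and 34.1% lower. Col1a1, Col1a2, Fn1 and Vim were high in all libraries and lower in GαqKO, and Fap was at 0 or near it. Other defining markers were low in WT: Pdgfra had a mean of 19.6 normalized counts there and 2320 in GαqKO, Dcn 32.1 and 1663, and Thy1 0.696 and 64.9. Thy1 reached 10 normalized counts, the bound for testing, in GαqKO only, so it had to differ to be tested. Prrx1 (3572 and 13374) and S100a4 (170 and 518) were also higher in GαqKO. The summed fibroblast markers ran from 87944 to 93722 normalized counts in WT and from 76191 to 79333 in GαqKO. The 8 leukocyte markers summed to 213 to 221 in WT and 439 to 467 in GαqKO, nearly all of it Cd14 and Cd68, with Ptprc, Itgam and Cd3e at or near 0. The 6 epithelial markers summed to 515 to 541 in WT, mainly Cdh1 and Krt14 with Epcam and Krt5 near 0, and to 10.1 to 23.1 in GαqKO. Neural markers summed to 912 to 1061 and 618 to 678, mainly Map2, Tubb3 and Syn1, with Sox2 and Nefl at 0. Endothelial, skeletal muscle, smooth muscle and pericyte, and erythroid markers each summed to at most 55.5 in any library. These lists move with the groups, and their part in the results was not tested. In bulk samples, fewer cells of a type and less RNA per cell cannot be told apart.

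All values are normalized counts, which are read counts per gene divided by 1 size factor per library. Totals ran from 11392429 to 11483486 per library. Differences are log2 fold changes of normalized count + 1, GαqKO minus WT, tested with limma over 14096 genes and adjusted by Benjamini-Hochberg. That scale understates the change of low genes. Group means are given with their SD over 3 libraries (n = 3), and positions of genes are those of GRCm39.

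Isozymes were called in opposite directions among the phosphofructokinases, the lactate carriers and the pyruvate dehydrogenase kinases. Over the whole set, Pkm, Ldhb, Pdk1 and the lactate carrier Slc16a1 rose, while Pfkfb3, Eno3, Slc16a3 and Pdk4 fell. Of the 37 genes, 35 entered the test, and G6pdx and Hif1a were listed at 0 in all 6 libraries. At an adjusted p under 0.05, 10 were higher (31.8% of all genes tested were), 16 were lower (34.1% of all genes) and 9 were not called. Called in either direction were 74.3% of the genes of the set tested and 65.8% of all genes tested. The median log2 fold change was -0.08 over the 35 genes and -0.01 over all genes. Of the called genes, Pkm, Ldhb and Pdk1 exceeded a log2 fold change of 1 (3 genes, against 10.2% of all genes tested), and Pfkfb3, Eno3, Slc16a3 and Pdk4 were below -1 (4 genes, against 10.5%). Without GαqKO replicate 3, 7 genes were below -1, with Pfkp, Pdk2 and Bnip3 added, against 1570 of all 14433 genes tested in that fit. With all 6 libraries, 20.7% of all genes tested lay past these bounds in either direction. Ldhb and Pdk4 passed the filter on low values through 1 group only, so they had to differ to be tested.

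**Figure D1:**
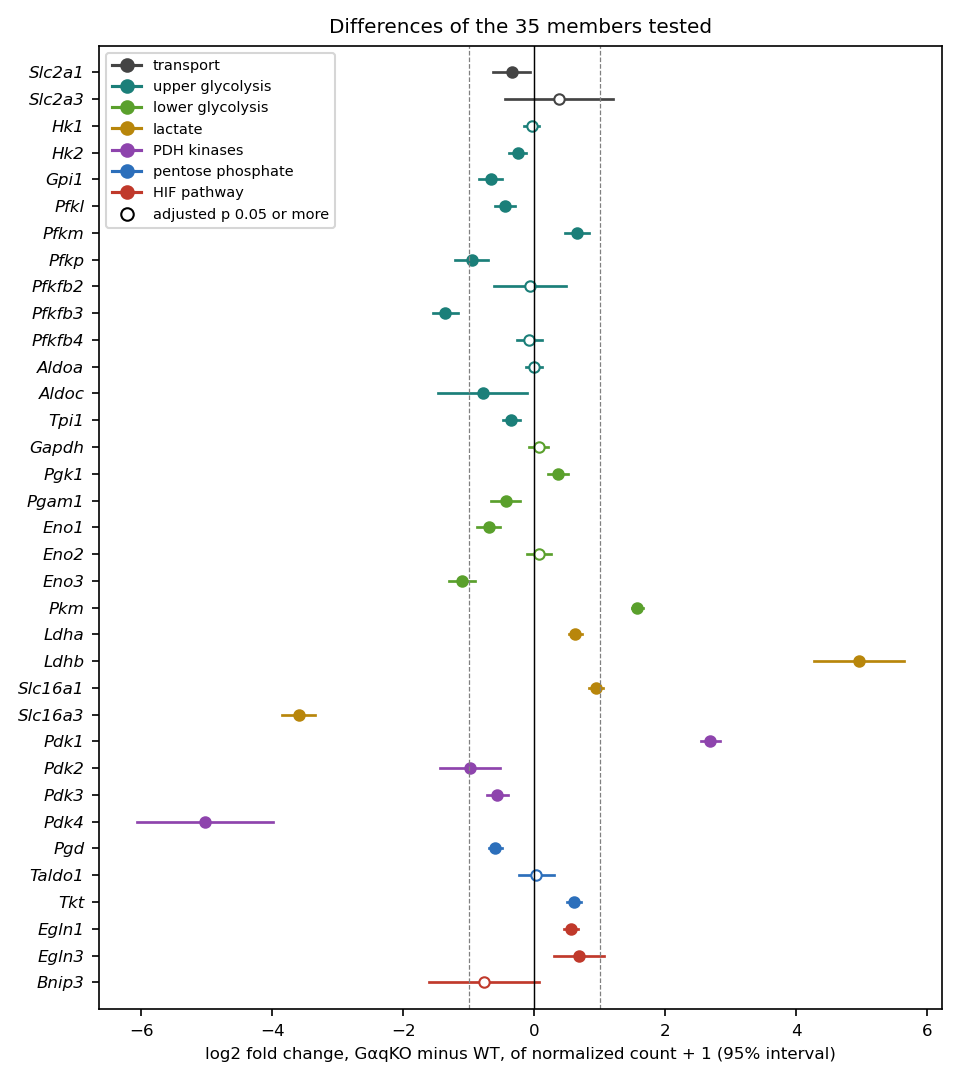
Log2 fold change (GαqKO minus WT, of normalized count + 1) with its 95% interval for the 35 genes tested, ordered and coloured by step; open points have an adjusted p of 0.05 or more and dashed lines mark 1 and -1. Upper glycolysis lies mostly left of 0, while lactate genes and PDH kinases hold the values farthest from 0 on both sides, from -5.02 for Pdk4 to 4.96 for Ldhb.

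Glucose transporters were low. Slc2a1 encodes GLUT1, the transporter of most cultured cells, and had 165, 200.1 and 228 normalized counts in WT and 159, 143 and 161 in GαqKO. All 3 GαqKO libraries lay below the WT libraries, with 161 as the highest against 165 as the lowest. The fall (log2 fold change -0.34, standard error 0.13, adjusted p = 0.0309) rested on single libraries, since the adjusted p was 0.139 without WT replicate 3 and from 0.0533 to 0.0986 without WT replicate 2, GαqKO replicate 1 or GαqKO replicate 2. Slc2a3, the high-affinity GLUT3 gene, was near the filter at 9.76 ± 0.393 in WT and 13.7 ± 5.63 in GαqKO (log2 fold change 0.38, adjusted p = 0.394). For Slc2a1, 63.2% of the exon bases lie inside the spans of other genes and 5.31% inside their exons. How the counting treated reads of overlapping genes, and whether it used strand, is not given in the sources used here.

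From hexokinase to triose phosphate, 7 of 12 genes fell, 1 rose and 4 were not called. Called were 66.7% of them, near the 65.8% of all genes tested (34.1% lower and 31.8% higher). Hk2, the hexokinase that growth signals induce, had 1517, 1541 and 1685 normalized counts in WT and 1231, 1384 and 1368 in GαqKO. Its groups did not overlap, and the fall was small (log2 fold change -0.25, standard error 0.059, adjusted p = 0.00188). Hk1, the constitutive hexokinase, was not called at 1055 ± 43.9 and 1028 ± 31.3 (log2 fold change -0.04, adjusted p = 0.548, 95% interval -0.15 to 0.08). Gpi1, glucose-6-phosphate isomerase, had 1104, 1195 and 1338 normalized counts in WT and 855, 711 and 727 in GαqKO (log2 fold change -0.66, standard error 0.081, adjusted p = 6.48e-06). All GαqKO values lay below all WT values, and the copy of this gene described further on held more reads than the gene itself.

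Phosphofructokinase, a main control point of the pathway, changed in its make-up. Pfkl, the liver-type subunit, had 585, 638 and 587 normalized counts in WT and 467, 408 and 459 in GαqKO (log2 fold change -0.44, standard error 0.073, adjusted p = 0.000116). Pfkm, the muscle-type subunit, had 330.0, 291 and 340.0 in WT and 461, 535 and 523 in GαqKO (log2 fold change 0.66, standard error 0.086, adjusted p = 1.26e-05). Pfkm was thus the 1 gene of upper glycolysis that rose, and its groups lay apart. Pfkp, the platelet-type subunit, went from 237 ± 6.22 to 122 ± 14.7 normalized counts (log2 fold change -0.95, adjusted p = 6.74e-06). Per kilobase of exon, Pfkl held 48.3% ± 2.73 of the 3 subunits in WT and 35.1% ± 2.98 in GαqKO. The share of Pfkm was 36.8% ± 2.699 in WT and 57.3% ± 3.31 in GαqKO, so the muscle-type subunit took the first place from the liver type. Exon bases inside other genes' spans were 43.5% for Pfkl, 21.7% for Pfkm and 15.1% for Pfkp. Those inside other genes' exons were 39.8%, 20.8% and 11.1%.

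The bifunctional enzymes that make and break down fructose-2,6-bisphosphate, the activator of phosphofructokinase, also changed unequally. Pfkfb3, the isozyme with the strongest kinase activity (ENSMUSG00000026773.20; chromosome 2, 11476244 to 11558888), had 699.6, 717 and 869 normalized counts in WT and 272, 298 and 320.2 in GαqKO. The highest GαqKO library was far below the lowest WT library, and the mean was 2.57-fold lower (log2 fold change -1.35, standard error 0.091, adjusted p = 1.58e-08). Pfkfb4 had 292, 272 and 304 in WT and 293, 261 and 269.9 in GαqKO, and these groups overlapped (log2 fold change -0.08, adjusted p = 0.467, 95% interval -0.27 to 0.11). Pfkfb2, at 49.5 ± 9.24 and 48.6 ± 15.1 normalized counts, was not called either (log2 fold change -0.06, adjusted p = 0.841). Of its exon bases, 98.4% lie inside the spans of other genes and 27.0% inside their exons. Per kilobase, Pfkfb3 made up 66.9% ± 1.66 of the family in WT and 45.4% ± 3.47 in GαqKO, where Pfkfb4 held 49.4% ± 2.78. That order in GαqKO depends on the division by exon length, since undivided counts there averaged 297 for Pfkfb3 and 275 for Pfkfb4.

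Aldolase and triose phosphate isomerase close upper glycolysis. Aldoa, the main aldolase, had 1366, 1345 and 1286 normalized counts in WT and 1271, 1445 and 1297 in GαqKO. These groups overlapped, with a 95% interval of -0.12 to 0.13 around the log2 fold change. Spans of other genes hold 99.3% of its exon bases, and their exons hold 43.8%. Aldoc, the brain-type aldolase, was low at 30.3, 21.4 and 24.4 in WT and 18.8, 15.03 and 10.1 in GαqKO. It was called lower by a narrow margin (log2 fold change -0.78, standard error 0.31, adjusted p = 0.0424), and the call was lost without WT replicate 1 (adjusted p = 0.136), without WT replicate 3 (0.0795), without GαqKO replicate 2 (0.0644) or without GαqKO replicate 3 (0.157). Tpi1, which interconverts both trioses, had 2007, 2028 and 1777 in WT and 1407, 1604 and 1562 in GαqKO, with no overlap (log2 fold change -0.35, standard error 0.063, adjusted p = 0.000262). For Tpi1, 66.04% of the exon bases lie inside the spans of other genes and 25.5% inside their exons.

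From triose to pyruvate, 2 of 7 genes rose, 3 fell and 2 were not called. That is 71.4% called, against 65.8% of all genes tested (31.8% higher and 34.1% lower). Gapdh, which makes the first NADH and is often used as a constant reference, had 583, 598 and 568 normalized counts in WT and 658, 572 and 612 in GαqKO. The groups overlapped (log2 fold change 0.07, standard error 0.067, adjusted p = 0.351). For Gapdh, 69.2% of the exon bases lie inside the spans of other genes and 41.6% inside their exons. Pgk1, the first ATP-yielding step, had 464, 484 and 425 in WT and 608, 582 and 580.0 in GαqKO (log2 fold change 0.37, standard error 0.069, adjusted p = 0.000331). Pgam1, phosphoglycerate mutase, had 283, 344 and 332 in WT and 254, 240.5 and 213 in GαqKO (log2 fold change -0.43, standard error 0.10, adjusted p = 0.00203). Pgk1 was higher and Pgam1 lower in every GαqKO library than in any WT library.

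Of the enolases, the muscle-type gene changed most. Eno3 (ENSMUSG00000060600.16; chromosome 11, 70546593 to 70553340) had 500.2, 504 and 454 normalized counts in WT and 243, 203 and 233 in GαqKO. Its mean was 2.15-fold lower and the groups lay far apart (log2 fold change -1.10, standard error 0.089, adjusted p = 1.09e-07). Spans of other genes hold 37.3% of its exon bases, and their exons hold 24.0%. Eno1, the enolase of most tissues, went from 609 ± 46.3 to 376 ± 28.7 (log2 fold change -0.69, adjusted p = 3.62e-06). Eno2, the neuron-type enolase, had 339, 359 and 389 in WT and 409, 376 and 361 in GαqKO, with overlapping values (log2 fold change 0.08, adjusted p = 0.44, 95% interval -0.10 to 0.25). Per kilobase, Eno3 held 44.1% ± 3.105 of the enolases in WT and 30.1% ± 1.43 in GαqKO, and Eno2 held 29.7% ± 1.53 and 46.01% ± 2.38. The lead of Eno3 in WT depends on the division by exon length, since undivided counts there were 609 for Eno1 and 486 for Eno3.

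Pkm, pyruvate kinase, was the most abundant glycolytic enzyme transcript per kilobase in the GαqKO libraries and rose furthest among these enzymes. Pkm (ENSMUSG00000032294.18; chromosome 9, 59563364 to 59586663) had 7132, 6874 and 7049 normalized counts in WT and 21342, 20826 and 20649 in GαqKO. Replicates differed by a few percent of the mean, against a mean 2.98-fold higher (log2 fold change 1.58, standard error 0.039, adjusted p = 7.2e-13). Summed over the 19 enzymes from hexokinase to pyruvate kinase, with the Pfkfb genes included, normalized counts went from 19241 ± 199 in WT to 31054 ± 255 in GαqKO. That is 0.168% ± 0.00189 of the library total in WT and 0.272% ± 0.0011 in GαqKO. Without Pkm the sum went the other way, from 12223 ± 196 to 10115 ± 105. Pkm alone was 36.5% ± 0.656 of the sum in WT and 67.4% ± 0.604 in GαqKO. These sums leave out reads on the copies described further on. Such reads averaged 3499 in WT and 3105 in GαqKO for Gpi1, against 5.04 and 2.77 for Pkm. Exon bases of Pkm lie inside other genes' spans for 71.3% and inside their exons for 40.6%. The counts are of whole genes, so the M1 and M2 splice forms of Pkm were not told apart.

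**Figure D2:**
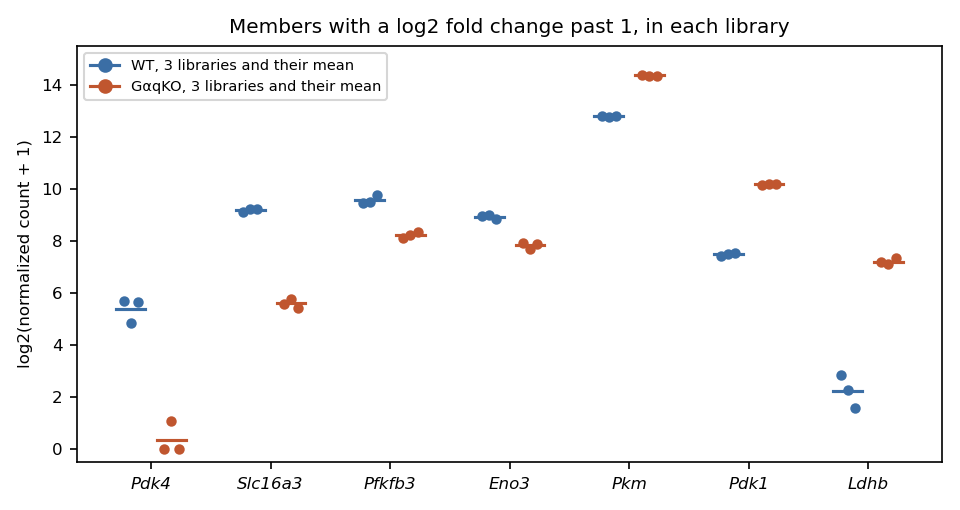
Log2(normalized count + 1) of the 7 genes past a log2 fold change of 1, with 1 point per library (3 WT and 3 GαqKO) and a bar at each group's mean. In each of the 7 the groups lie apart, and Pdk4 in GαqKO sits at 0 or 1.16 normalized counts.

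All 4 lactate genes were called, with 3 rises and 1 fall, where 65.8% of all genes tested were called (31.8% higher and 34.1% lower). Ldhb among the rises passed the filter on low values through GαqKO only, so it had to differ to be tested. Ldha, the lactate dehydrogenase subunit that favours lactate formation, had 1928, 1942 and 1766 normalized counts in WT and 2933, 2954 and 2845 in GαqKO. The groups did not overlap (log2 fold change 0.63, standard error 0.048, adjusted p = 5.27e-08). Ldhb, the heart-type subunit (ENSMUSG00000030246.13; chromosome 6, 142435672 to 142454586), had 6.26, 3.89 and 2.04 in WT and 144, 136 and 162 in GαqKO. It was near the floor in WT and present in every GαqKO library (log2 fold change 4.96, standard error 0.32, adjusted p = 9.34e-09), with a mean 36.3-fold higher.

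Reads of the Ldhb sequence fell mainly on another row of the table. Ldhb-ps, an intronless processed pseudogene on chromosome 19 with 98% identity to the Ldhb coding sequence, had 75.2, 36.9 and 59.03 normalized counts in WT and 2633, 2666 and 2641 in GαqKO. Its values moved as those of Ldhb did (log2 fold change 5.57, standard error 0.18, adjusted p = 7.48e-12). The pseudogene held 93.4% of the sum of both in WT and 94.7% in GαqKO. The sum had a log2 fold change of 5.55. The aligner that the authors name does not split a read across an intron, and the pseudogene holds the exon junctions of Ldhb without a break. The 60 coding bases around 1 such junction are shown for both, 5′ to 3′ on the coding strand of GRCm39, to show how alike they are. Capitals mark the base that differs. Ldhb lies at chr6:142441438-142444260 (minus strand, intron left out) and Ldhb-ps at chr19:21915135-21915194 (plus strand).
Ldhb: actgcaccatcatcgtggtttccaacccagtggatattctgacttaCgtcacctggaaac
Ldhb-ps: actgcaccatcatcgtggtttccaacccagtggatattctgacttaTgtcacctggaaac
Which gene these reads were transcribed from was not tested. Per kilobase of exon, Ldhb held 0.224% ± 0.111 of lactate dehydrogenase in WT and 5.07% ± 0.531 in GαqKO. With the copies of Ldha and Ldhb added to their genes, that share was 3.23% ± 1.03 in WT and 49.9% ± 0.513 in GαqKO.

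The monocarboxylate transporters that carry lactate across the membrane moved in opposite directions. Slc16a1, the gene of MCT1, had 2442, 2352 and 2169 normalized counts in WT and 4511, 4516 and 4356 in GαqKO. All GαqKO values were above all WT values, with a mean 1.92-fold higher (log2 fold change 0.94, standard error 0.049, adjusted p = 9.17e-10). Slc16a3, the gene of the lactate exporter MCT4 (ENSMUSG00000025161.17; chromosome 11, 120838846 to 120851694), had 558, 600.3 and 605 in WT and 46.95, 54.3 and 42.3 in GαqKO. Its mean was 12.3-fold lower (log2 fold change -3.60, standard error 0.12, adjusted p = 1.18e-11), and the groups lay far apart. Slc16a3 made up 10.6% ± 0.944 of both carriers per kilobase in WT and 0.499% ± 0.055 in GαqKO. Spans of other genes hold 76.2% of its exon bases, and their exons hold 44.1%. Bsg, the chaperone that both carriers need at the membrane, was singled out after its values were seen and went from 7652 ± 459 to 5391 ± 203 (log2 fold change -0.50, adjusted p = 7.79e-07).

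The pyruvate dehydrogenase kinases, which switch off the entry of pyruvate into mitochondria, exchanged their leading member. Pdk1 (ENSMUSG00000006494.12; chromosome 2, 71703488 to 71734202), an isozyme known as a HIF target, had 169, 181 and 184 normalized counts in WT and 1142, 1162 and 1154 in GαqKO. The mean was 6.47-fold higher, far beyond a spread of 10.2 normalized counts or less in either group (log2 fold change 2.69, standard error 0.067, adjusted p = 8.24e-13). Pdk3, the most abundant kinase per kilobase in WT, had 542, 476 and 482 in WT and 326, 345 and 344 in GαqKO (log2 fold change -0.56, standard error 0.076, adjusted p = 1.86e-05). Pdk2 went from 61.1 ± 5.94 to 30.7 ± 5.01 (log2 fold change -0.98, adjusted p = 0.00107), with 46.1% of its exon bases inside the spans of other genes and 33.9% inside their exons. Pdk4 (ENSMUSG00000019577.7; chromosome 6, 5483097 to 5496339), the isozyme that fasting and fatty acids raise, had 50.1, 28.2 and 48.9 in WT and 0, 1.16 and 0 in GαqKO. All 3 GαqKO libraries were at or under the floor of 3 counts per library, so the mean was at least 14.1-fold lower (log2 fold change fitted as -5.02, adjusted p = 5.7e-07). The floor covers counting error only. Pdk4 passed the filter on low values through WT only, so it had to differ to be tested. Per kilobase, Pdk1 held 20.5% ± 2.12 of the 4 kinases in WT and 74.5% ± 0.559 in GαqKO. Pdk3 held 61.2% ± 1.79 in WT and 23.4% ± 0.40 in GαqKO.

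**Figure D3:**
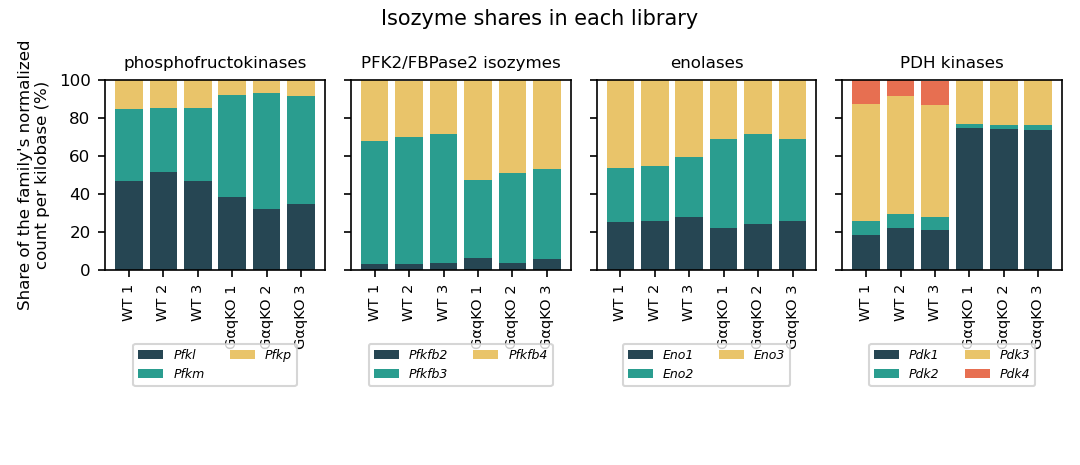
Share of each isozyme (%) in its family's normalized counts per kilobase of exon, as stacked bars with 1 bar per library, for phosphofructokinases, the PFK2/FBPase2 isozymes, enolases and PDH kinases. The 3 bars of a group are alike, and between groups the largest shift is Pdk1, from 20.5% in WT to 74.5% in GαqKO.

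Shares within a family do not depend on the scaling between libraries. Of 19 shares compared in 10 families, 16 had groups that did not overlap, while of all genes tested 69.6% had such normalized counts. These rates are not alike, because a change in any isozyme also moves the shares of the others in its family. The shares of Pfkfb2 and Pfkfb4 lay apart though their normalized counts overlapped. Each of the 16 had an exact permutation p of 0.1 (two-sided), the smallest that 3 against 3 libraries allow, and 0.119 after Benjamini-Hochberg adjustment over the 19. A p under 0.05 was thus out of reach for any share. The shares of Slc2a3, Eno1 and Egln3 overlapped. The hexokinases shifted little, with Hk2 at 61.4% ± 1.17 in WT and 57.8% ± 1.52 in GαqKO.

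In the pentose phosphate pathway, 1 gene rose, 1 fell, 1 was not called and 1 was listed at 0. Those tested were called at 66.7%, near the 65.8% of all genes (31.8% higher and 34.1% lower). Pgd, the second NADPH-forming dehydrogenase, had 2894, 2745 and 2835 normalized counts in WT and 1863, 1942 and 1828 in GαqKO. Its groups lay apart, with the mean 1.504-fold lower (log2 fold change -0.59, standard error 0.044, adjusted p = 5.16e-08). Tkt, transketolase of the non-oxidative branch, had 1654, 1514 and 1541 in WT and 2285, 2478 and 2414 in GαqKO (log2 fold change 0.61, standard error 0.050, adjusted p = 1.35e-07). It was higher in every GαqKO library. Taldo1, transaldolase, had 182, 155 and 142 in WT and 153, 179 and 158 in GαqKO, and these values overlapped (log2 fold change 0.04, adjusted p = 0.815, 95% interval -0.23 to 0.31).

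G6pdx, the enzyme that opens the pathway (ENSMUSG00000031400.11; chromosome X, 73449857 to 73472819), was listed at 0 in all 6 libraries, and all of its exon bases lie inside the span of Ikbkg on the opposite strand. Inside the exons of Ikbkg lie 8.13% of them. This 0 is taken as a listed value and not as a measured absence, and its cause was not tested. G6pd2, an intronless retrogene with 94.9% identity to the G6pdx coding sequence, had 651, 671 and 706 normalized counts in WT and 742, 740.0 and 767 in GαqKO. Every GαqKO value was above every WT value, by a small amount (log2 fold change 0.15, standard error 0.058, adjusted p = 0.035). Which of these genes those reads came from was not tested. The 60 coding bases around 1 exon junction of G6pdx are set beside those of G6pd2, with the differing base in capitals, at chrX:73455235-73455601 (minus strand, intron left out) and chr5:61966967-61967026 (plus strand) of GRCm39.
G6pdx: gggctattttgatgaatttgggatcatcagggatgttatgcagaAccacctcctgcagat
G6pd2: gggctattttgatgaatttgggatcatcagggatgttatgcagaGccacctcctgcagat

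Copies of other enzymes held reads as well. Coding sequences of the 37 genes were searched against GENCODE transcripts, and 13 had at least 1 pseudogene or retrogene copy covering 50% or more of the coding sequence at 85% or more identity. Of 324 such copies, 72 had a value above 0 in some library. Gpi-ps, the copy of Gpi1, had 3659, 3503 and 3337 normalized counts in WT and 3098, 3103 and 3113 in GαqKO, against a smaller value on Gpi1 itself in every library. The sum of both fell less than Gpi1 alone (log2 fold change -0.28, standard error 0.039, adjusted p = 2.03e-05). Pgk1-rs7, which is identical to Pgk1 over the bases aligned, had 994, 959 and 858 in WT and 1154, 1102 and 1106 in GαqKO. With its copies added, Pgk1 had a log2 fold change of 0.29. Gapdh has 255 copies, of which 56 were above 0, and these summed to 252 ± 37.2 in WT and 362 ± 13.4 in GαqKO. With them added, Gapdh was called higher (log2 fold change 0.23, standard error 0.058, adjusted p = 0.00352), and its groups no longer overlapped. Pgam1-ps2, the copy of Pgam1, had 258 ± 31.7 and 254 ± 37.6, and the sum of Pgam1 with it fell by a log2 of 0.24 (adjusted p = 0.00966). Copies of Aldoa, Tpi1 and Eno1 moved no call.

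The junction windows show how little separates these genes from their copies. Gpi1 lies at chr7:33907296-33907704 (minus strand, intron left out) and Gpi-ps at chr8:5690170-5690229 (plus strand), with differing bases in capitals. Pgk1 lies at chrX:105241538-105243282 (plus strand, intron left out) and Pgk1-rs7 at chr12:10949571-10949630 (minus strand), with no difference in the window.
Gpi1: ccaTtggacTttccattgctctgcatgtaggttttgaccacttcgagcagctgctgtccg
Gpi-ps: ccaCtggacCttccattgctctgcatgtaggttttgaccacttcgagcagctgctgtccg
Pgk1: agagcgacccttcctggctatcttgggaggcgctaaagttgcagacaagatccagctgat
Pgk1-rs7: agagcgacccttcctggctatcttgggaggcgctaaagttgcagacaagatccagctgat

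**Figure D4:**
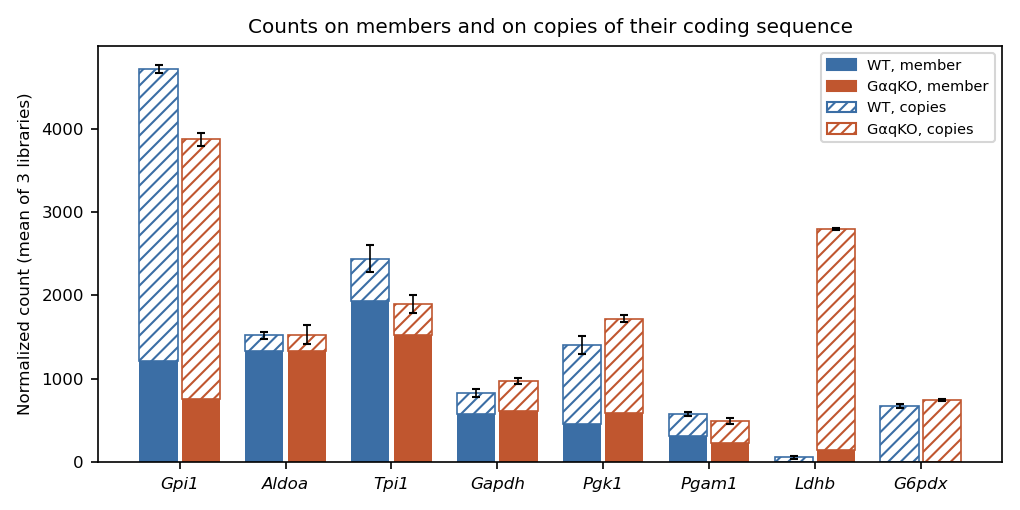
Mean normalized count of 3 libraries on the gene (solid) and on copies of its coding sequence (hatched), for the 8 genes whose copies held most reads, with the SD of the sum as the error bar. For Gpi1, Pgk1, Ldhb and G6pdx the copies hold more than the gene itself in both groups.

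Per kilobase of exon, the levels of the measured genes spread widely. In WT, Tpi1 was highest at 699 ± 50.3 normalized counts per kilobase, followed by Pkm at 523 ± 9.81, Slc16a1 at 439 ± 26.3, Ldha at 396 ± 20.6 and Pgd at 357 ± 9.498. Slc16a1 and Ldha were closer to each other than their SDs added. In GαqKO, Pkm led at 1561 ± 26.8, followed by Slc16a1 at 844 ± 17.2, Ldha at 614 ± 12.2 and Tpi1 at 550.0 ± 37.5. Lowest among the genes tested were Slc2a3, Ldhb and Pfkfb2 in WT and Pdk4, Slc2a3 and Bnip3 in GαqKO. These levels depend on the exon lengths of the annotation and leave the copies out.

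Of the 4 HIF genes of the set, 2 were higher, 1 was not called and 1 was not tested. Those tested were called at 66.7%, near the 65.8% of all genes (31.8% higher and 34.1% lower). Hif1a, the oxygen-regulated subunit itself (ENSMUSG00000021109.14; chromosome 12, 73948149 to 73996321), was listed at 0 in all 6 libraries, and all of its exon bases lie inside the span of Gm15283, a long non-coding RNA on the opposite strand. The exons of Gm15283 hold 8.33% of them. This 0 likewise is taken as a listed value whose cause was not tested, and nothing is known here of the Hif1a transcript. Egln1, the main prolyl hydroxylase of HIF, had 1218, 1158 and 1257 normalized counts in WT and 1786, 1768 and 1823 in GαqKO. Egln3, a prolyl hydroxylase that HIF itself induces, had 53.3, 59.3 and 47.8 in WT and 89.2, 95.97 and 74.5 in GαqKO. Both were higher in every GαqKO library than in any WT library (log2 fold change 0.57, standard error 0.048, adjusted p = 1.78e-07 for Egln1, and log2 fold change 0.68, standard error 0.18, adjusted p = 0.00384 for Egln3). Bnip3, a mitophagy receptor and HIF target, had 14.6, 29.1 and 14.2 in WT and 8.45, 8.09 and 16.1 in GαqKO. Of its exon bases, 33.4% lie inside the spans of other genes and 11.7% inside their exons. GαqKO replicate 3 lay within the WT values, and the difference was not called (log2 fold change -0.76, adjusted p = 0.103), though without that library it was (log2 fold change -1.06, adjusted p = 0.0482).

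Among 44 further HIF pathway and hypoxia-induced genes, 40 were tested, of which 7 were higher, 20 lower and 13 not called. Called in either direction were 67.5%, near the 65.8% of all genes tested, with 31.8% of all genes higher and 34.1% lower. Their median log2 fold change was -0.24. Past a log2 fold change of 1 there were 4 higher and 9 lower, against 10.2% and 10.5% of all genes tested. Epas1 among the higher and Car9 and Angptl4 among the lower passed the filter on low values through 1 group only, so they had to differ to be tested. Stc2, a secreted glycoprotein, rose from 18.8 ± 0.944 to 1638 ± 57.9 normalized counts (log2 fold change 6.37, adjusted p = 1.46e-14), and Ak4, a mitochondrial adenylate kinase, from 85.9 ± 11.5 to 445 ± 38.95 (log2 fold change 2.36, adjusted p = 8.7e-10). Lox, which crosslinks collagen, fell from 8395 ± 166 to 2598 ± 124 (log2 fold change -1.69, adjusted p = 1.14e-12). Arnt2, a partner of HIF alpha subunits, fell from 424 ± 24.8 to 45.5 ± 14.8 (log2 fold change -3.24, adjusted p = 3.26e-09), and Cited2, which competes with HIF for its coactivator, from 4938 ± 185 to 2103 ± 99.4 (log2 fold change -1.23, adjusted p = 4.71e-11). Narf fell as well (log2 fold change -1.51, adjusted p = 2.47e-09). Vegfa, a classic HIF target named after its value was seen, was at 1494 ± 69.1 and 1467 ± 134 (log2 fold change -0.03, adjusted p = 0.706, 95% interval -0.17 to 0.11). Some well-known targets were among the rises, as Stc2 and Pdk1, and some among the falls, as Slc16a3 and Pfkfb3. Over the 40 genes of this list, 7 were higher and 20 lower.

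Among 61 further genes of glycolysis, the pentose phosphate pathway and pyruvate use, 38 were tested, of which 18 were higher, 8 lower and 12 not called (68.4% called, against 65.8% of all genes), with a median log2 fold change of 0.22. Galm, which interconverts the anomers of hexoses, rose from 85.4 ± 7.09 to 343 ± 30.3 normalized counts (log2 fold change 1.99, adjusted p = 3.77e-09). Pcx, which carboxylates pyruvate to oxaloacetate, rose from 278 ± 12.3 to 1020.2 ± 25.6 (log2 fold change 1.87, adjusted p = 1.65e-11). Bpgm, the bisphosphoglycerate mutase, rose from 363 ± 31.05 to 772 ± 37.6 (log2 fold change 1.09, adjusted p = 1.93e-08). Those 3 were the rises past a log2 fold change of 1 and with 100 or more normalized counts on average, and no fall met that rule. Slc2a10, a glucose transporter gene named after its values were seen, had 78.5 ± 5.38 in WT and was listed at 0 in all 3 GαqKO libraries. It and Slc2a13 entered the test through 1 group only. Pfkfb1, Pgm1, Gbe1 and Ppp1r3c stand on more than 1 of these lists. Of the 12 glycogen genes tested, 2 were higher (31.8% of all genes tested were), 8 lower (34.1% of all genes) and 2 not called, with a median of -0.55. Ppp1r3b among the lower entered through WT only. Without GαqKO replicate 2, 4 were called higher, as were 4208 of all 14386 genes tested in that fit. Pygb, the brain-type glycogen phosphorylase, fell from 1528 ± 27.8 to 657 ± 28.1 (log2 fold change -1.22, adjusted p = 1.56e-10). Phka1, a regulatory subunit of phosphorylase kinase, fell from 589.8 ± 20.3 to 136 ± 12.04 (log2 fold change -2.11, adjusted p = 1.49e-10). Stbd1, a glycogen-binding protein, fell from 367 ± 20.9 to 72.5 ± 6.09 (log2 fold change -2.33, adjusted p = 6.14e-10).

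**Figure D5:**
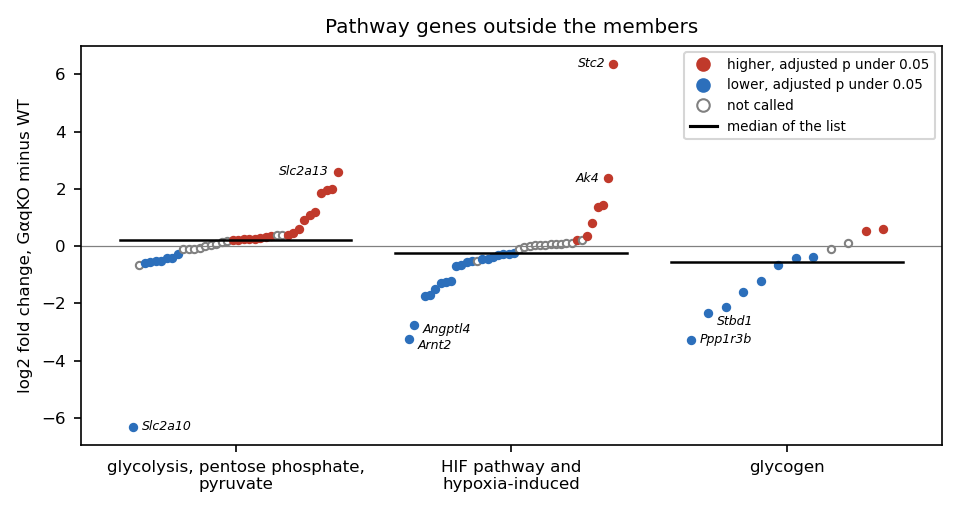
Log2 fold change (GαqKO minus WT) of the tested genes in the lists outside the set of 37 (1 gene is left out), 1 point per gene ordered by size within its list, filled where the adjusted p is under 0.05, with the list's median as a bar. The medians lie at 0.22, -0.24 and -0.55, and Stc2 and Slc2a10 lie farthest from 0.

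HIF binds DNA at a core of ACGTG or GCGTG. The 250 bases before the start of 36 of the 37 genes were read from RefSeq (GRCm38.p6), and Slc2a3 was left out. A gene with several starts has several windows, 53 for these 36 genes and 32851 for all 27025 genes, and counts if any of them matches, so more windows give more chances of a match. ACGTG stood on either strand in 18 of these 36 genes and in 18.5% of all genes, and in 41.5% of the 53 windows and 16.6% of all windows. ACGTG or GCGTG stood in 91.7% of the 36 genes and 41.5% of all genes, and in 81.1% and 38.6% of the windows. A CACGTG holds ACGTG on both strands and is counted on each. The motif is short, the base composition of the windows was not matched, and a match is not a bound site. Windows of 3 genes that the results turn on are given 5′ to 3′ on the gene's strand, with ACGTG matches in capitals. They are Ldha (chr7:46845554-46845803, plus strand), which rose, Slc16a3 (chr11:120948817-120949066, plus strand), which fell, and Pdk1 (chr2:71872974-71873223, plus strand), which rose and has no ACGTG but 1 GCGTG in this window.
Ldha: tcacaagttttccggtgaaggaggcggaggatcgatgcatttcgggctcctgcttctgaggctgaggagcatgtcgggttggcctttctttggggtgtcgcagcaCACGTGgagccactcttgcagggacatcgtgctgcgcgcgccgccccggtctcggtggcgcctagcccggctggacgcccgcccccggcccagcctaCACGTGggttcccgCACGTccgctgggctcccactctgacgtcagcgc
Slc16a3: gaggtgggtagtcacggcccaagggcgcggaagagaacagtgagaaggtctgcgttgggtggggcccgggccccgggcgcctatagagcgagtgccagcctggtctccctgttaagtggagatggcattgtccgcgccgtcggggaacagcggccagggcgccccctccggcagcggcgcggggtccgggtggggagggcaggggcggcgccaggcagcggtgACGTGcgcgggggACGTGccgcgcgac
Pdk1: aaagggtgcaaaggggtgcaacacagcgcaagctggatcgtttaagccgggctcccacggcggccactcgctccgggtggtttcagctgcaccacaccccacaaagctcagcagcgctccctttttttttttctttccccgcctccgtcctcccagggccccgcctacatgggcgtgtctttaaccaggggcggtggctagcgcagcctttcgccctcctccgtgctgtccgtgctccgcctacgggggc
Matches to ACGTG were thus found before genes that rose and before genes that fell, and Eno3, Ldhb and Pdk4 held no ACGTG and 1 GCGTG each in the window read.

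Median differences varied between chromosomes, and genes of the set went both with and against the median of their chromosome. The median log2 fold change of all genes tested was lowest on chromosome 4, at -0.35, where Slc2a1, Eno1 and Pgd lie, and highest on chromosome 3, at 0.32, where Slc16a1 lies. It was 0.29 on chromosome 8, which holds Egln1, and 0.18 on chromosome 7, which holds Ldha, Gpi1, Aldoa, Taldo1 and Bnip3. It was -0.28 on chromosome 10, which holds Hk1 and Pfkl, and -0.27 on chromosome X, which holds Pgk1 and Pdk3. On chromosome 9 it was 0.02, with Pkm, and on chromosome 2 it was 0.03, with Pdk1 and Pfkfb3. Against these medians, Pgk1 rose on chromosome X and Gpi1 fell on chromosome 7. The part of these chromosome-wide differences in the results was not tested.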

How the data were processed

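RNA of 3 WT and 3 GαqKO MEF libraries was grouped by the labels. The authors made stranded poly-A libraries, aligned 150-base paired reads with Rbowtie2 to GRCm39, counted them with featureCounts on GENCODE annotation, ran DESeq2 and deposited normalized counts, a signal of gene counts divided by a size factor per library. Tool versions, strand setting and filters are not given in the sources used here. In 5 libraries 100.0% of nonzero values were whole multiples of a step (tolerance 0.01), which gave 9853000 to 12229175 reads. GαqKO replicate 3 was not accepted as reads.

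Symbols and exons came from GENCODE M39 (56310 of 56953 identifiers matched). Limma 3.58.1 with a trend was fitted in R 4.3.3 to log2(normalized count + 1) of genes that reached 10 normalized counts in 3 or more libraries. edgeR 4.0.16 and DESeq2 1.42.0 ran on the recovered reads of 5 libraries as alternatives. Shares used SciPy 1.17.1 and copies BLAST 2.17.0. The code was tested on simulated data. The 37 genes, lists and isozyme families were chosen with earlier results of these data known. Every gene of the set could be named; genes past a log2 fold change of 1, and the leading isozyme of each step, are given per library. Of the other lists, up to 6 rises and 6 falls past 1 that average 100 or more normalized counts are named, except 1 gene that is not reported here by name or value and stays in the counts of its list. Replicate numbers gave no sign of pairing, and the libraries were treated as unpaired.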

Additional observations from a re-analysis of the deposited data

How the results depend on the processing

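Counts of called genes were recomputed under other scaling, filters, pseudocounts, prior spread, a replicate block, count tests on 5 libraries and with each library left out, and after the data were seen with copies added. Of 35 genes tested, 27 kept direction and call in each of these that tested them. Genes lower past a log2 fold change of 1 numbered 4, and 7 in edgeR on 5 libraries and 4 to 7 with 1 library left out. The highest of the latter came without GαqKO replicate 3, which is the same fit as limma on those 5 libraries, and added Pfkp, Pdk2 and Bnip3. Of all genes, 1570 of 14443 tested in edgeR and 1570 of 14433 tested in that limma fit were lower past 1. Glycogen genes called higher numbered 2, and 2 to 4 with 1 library left out, with 4 without GαqKO replicate 2. Without that library, 4208 of all 14386 genes tested were called higher. DESeq2 on 5 libraries called 10 genes higher and 13 lower. Of all 17254 genes it tested, it called 3549 higher and 3884 lower. With 1 library left out, log2 fold changes ran from -0.217 to 0.222 for Pfkfb2, from -0.0525 to 0.0399 for Aldoa and from -0.043 to 0.131 for Taldo1, none of them called in any fit. Their signs turned without WT replicate 3 (0.0816, -0.0212 and -0.043) and without GαqKO replicate 2 (0.222, -0.0525 and -0.0319). Slc2a1 lost its call without a trend in the prior spread (adjusted p = 0.0642) and in DESeq2 (0.14), Pgam1 in DESeq2 (0.0586), and Aldoc without a filter (0.116), in edgeR (0.217) and in DESeq2 (0.456). Bnip3 was called in edgeR on 5 libraries (adjusted p = 0.0479). The cause was not tested.

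Same-numbered libraries did not deviate together (correlations -0.05, -0.15 and -0.06), so the numbers gave no sign of pairing. Whether the libraries were prepared in pairs cannot be told from these values. With a replicate block, 10 genes were higher and 15 lower, with Aldoc lost (adjusted p = 0.0535). Of all 14096 genes tested with the block, 4324 were higher and 4638 lower. Without division by exon length, 8 of the 19 share differences moved by more than the spread between replicates, and with copies added that of Ldhb did, with none changing direction. Genes with few counts, such as Slc2a3, Pdk4 and Bnip3, are limited by depth.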
